A study of Mus musculus with 6 samples.

Results

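The genes described here encode the integrins, the laminins and the nidogens, taken by gene symbol from the RNA-seq data of WT and MSTN-KO C2C12 cells. Of the 14548 genes in the data, 35 had such a symbol: 14 integrin alpha subunits, 8 integrin beta subunits, 11 laminin chains and both nidogens. The rule used symbols only, and the families themselves were picked with earlier results of these data known. A further 3 symbols of the same families (*Itga2*, *Itgam* and *Itgax*) were not analysed here. C2C12 is a mouse myoblast line, that is, a line of precursors of skeletal muscle fibres. The WT group held 3 libraries of these cells, and the MSTN-KO group held 3 libraries of the line C11, which carries a deletion in *Mstn* made by CRISPR/Cas9 from a plasmid given by electroporation. Both groups were described as C2C12 cells, with no further allele or agent, and C11 was the only knockout line, so the loss of MSTN and other differences between C11 and the WT cells cannot be told apart. In the sample labels the WT libraries carry the strain name C11 as well, and the grouping rests on the labelled genotype. Nothing stated that the 3 libraries of a group came from separate cultures, so the p-values measure the spread between these libraries, which may be technical.

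Integrins are receptors in the plasma membrane that join an alpha and a beta subunit and link the matrix outside the cell to actin inside it. Laminins are trimers of an alpha, a beta and a gamma chain that polymerise into the basement membrane, the sheet of matrix around each muscle fibre, and nidogens connect the laminin network to collagen IV. In skeletal muscle the alpha7 subunit with beta1 is the main laminin receptor among the integrins, and the laminin with the alpha2 chain is the main laminin of the fibre; loss of either gene causes muscle disease.

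The values were FPKM, fragment counts divided by exon length and by the size of the library, so levels can be set side by side between genes, while differences between libraries also depend on how the libraries are scaled. Their sum per library ran from 723705 to 764524 in WT and from 856314 to 999579 in MSTN-KO. The number of fragments is unknown; the commonest ratio among genes under 0.1 FPKM put the depth of the other libraries at 0.85 to 1.09 of that of WT replicate 1, but only 4.4% to 7.28% of these genes had that ratio. *Mstn* RNA was at most 0.0586 FPKM in all 6 libraries and gave no check of the labels. Of the muscle differentiation markers, 13 of 14 tested fell at an adjusted p under 0.05, beside 8.96% of all tested genes. Among the 13, *Ckm*, *Myh3* and *Casq2* reached 1 FPKM in WT libraries only. Their place among the lower genes is partly fixed by the filter of 1 FPKM given below. The summed level of the list was 1076, 1087 and 324 FPKM in WT replicates 1, 2 and 3 against 45.8 to 76.4 FPKM in MSTN-KO. Of 7 myoblast markers, *Myod1*, *Des*, *Cdh2*, *Ncam1* and *Cav3* fell and *Pax7* rose, beside 8.96% and 8.78% of all tested genes. *Cav3* reached 1 FPKM in WT replicate 2 only (1.18 FPKM) and was listed at 0 in MSTN-KO. Its place among the lower genes is thus also partly fixed by the filter. The defining markers *Myod1* and *Des* were present in every library. Markers of leukocytes summed to 7.64 to 10.6 FPKM over both groups, with 6 of 8 under 1 FPKM throughout, and markers of endothelial cells to at most 0.183 FPKM. Of the 8 leukocyte markers, *Cd14* (5.31 to 8.41 FPKM) and *Cd68* (0.702 to 2.39 FPKM) were tested, neither with a call. Fibroblast markers summed to 362 to 499.6 FPKM in WT and 574 to 639 FPKM in MSTN-KO, without overlap in the values as deposited. The FPKM sum over all genes was also higher in MSTN-KO, and the marker sums were not rescaled. They were mostly *Col1a2* (means of 203 FPKM in WT and 231 FPKM in MSTN-KO, without a call) and *Col3a1* (217 and 346 FPKM). Of 5 tested, *Pdgfrb* (1.46) and *Col3a1* (0.68) rose and *Dcn* (-0.73) fell on the log2 scale, beside 8.78% and 8.96% of all tested genes. The part of these markers in the values below was not tested.

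A total of 19 of the 35 genes reached 1 FPKM in at least 1 library and entered the comparison with 10837 genes in all, which used limma on log2(FPKM + 1). On this scale the change of a gene with low FPKM is understated. In the MSTN-KO group, *Itgb5* and *Itgb7* were upregulated and *Itga7*, *Itgb1*, *Itgb6*, *Lama2*, *Lamb3* and *Nid1* were downregulated at a Benjamini-Hochberg adjusted p under 0.05. These were 2 higher and 6 lower of 19, beside 8.78% of all tested genes called higher and 8.96% called lower. Under the criteria for DEGs, log2 fold changes beyond 1 or -1 with an unadjusted p below 0.05, *Lamb3*, *Lama2* and *Nid1* were downregulated and 0 of the 19 were upregulated, beside 2.3% and 1.21% of all tested genes. The median log2 fold change of the 19 genes was -0.04, against -0.000781 over all tested genes. All 3 MSTN-KO libraries lay above all 3 WT libraries for 3 of the 19 genes and below them for 8, beside 19.3% and 18.1% of all tested genes. Scaling each library to a sum of 1000000 moved the median of all tested genes to -0.26 and the share of higher genes among all those called from 49.5% to 12.9%, and called 2 of the 19 genes higher and 8 lower. In a bulk culture, fewer cells that express a gene and less RNA per cell cannot be told apart.

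**Figure D1:**
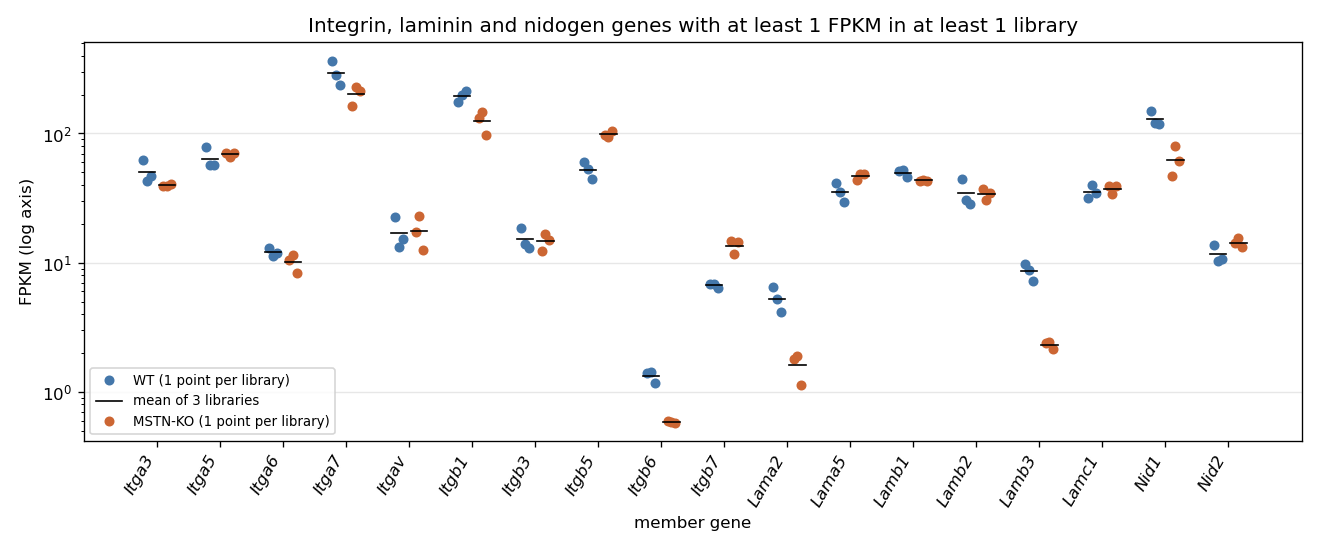
FPKM on a log axis of 18 of the 19 tested genes, with 1 point per library, WT in blue and MSTN-KO in orange, and a black line at the mean of each group of 3. The libraries of both groups are separated widely for *Lamb3*, *Lama2*, *Itgb6*, *Itgb7*, *Itgb5* and *Nid1* and overlap for *Itgav*, *Itgb3*, *Lamb2* and *Lamc1*.

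Among the beta subunits, beta1 is the common partner of most alpha subunits, and *Itgb1* was the most abundant beta subunit in the WT group. It had 176, 198 and 212 FPKM across WT replicates 1 to 3, against 132, 146 and 97 FPKM across MSTN-KO replicates 1 to 3. The groups did not overlap, and MSTN-KO replicate 3 was the lowest library. The mean fell from 196 ± 18.1 to 125 ± 25.2 FPKM (SD, n = 3), on the log2 scale a change of -0.66 (SE of the log2 change 0.15, adjusted p from limma = 0.0113). The call held under each alternative setting and with each library left out, with an adjusted p of at most 0.0418.

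*Itgb5* encodes the beta5 subunit, which pairs with alphav to bind vitronectin. It had 60.2, 53.4 and 44.3 FPKM across WT replicates 1 to 3, against 97, 93.5 and 105 FPKM across MSTN-KO replicates 1 to 3. Every MSTN-KO library was well above the highest WT library. The log2 fold change was 0.90 (SE of the log2 change 0.14, adjusted p from limma = 6.83e-04), or 1.87-fold between the means of 52.6 ± 8 and 98.4 ± 5.65 FPKM (SD, n = 3). With each library left out in turn it lay between 0.78 and 1.00.

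*Itgb7* encodes a subunit known from lymphocytes, where it pairs with alpha4 or alphaE. It had 6.87, 6.88 and 6.4 FPKM across WT replicates 1 to 3, against 14.6, 11.7 and 14.4 FPKM across MSTN-KO replicates 1 to 3. The WT libraries were nearly equal, and each MSTN-KO library was higher than all of them. The log2 fold change was 0.91 (SE of the log2 change 0.14, adjusted p from limma = 8.85e-04), or 2.02-fold between means. Its known partners were scarce, *Itga4* at 0.134 to 0.362 FPKM and *Itgae* at 0.0106 to 0.0694 FPKM over the 6 libraries. The other leukocyte subunits were also low, *Itgb2* at 0.122 to 0.256 FPKM and *Itgal* at 0.0387 to 0.182 FPKM. Of the leukocyte markers, *Laptm5* and *Fcer1g* were listed at 0 in 5 libraries each, and *Lyz2* and *Cd79a* in part of the libraries. *Cd14*, *Cd68*, *Csf1r* and *Coro1a* were above 0 in all 6. The list summed to 8.03 to 10.2 FPKM in WT and 7.64 to 10.6 FPKM in MSTN-KO.

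*Itgb6*, an epithelial subunit that pairs with alphav, was near the limit of the filter. It had 1.4, 1.42 and 1.17 FPKM across WT replicates 1 to 3, against 0.591, 0.587 and 0.575 FPKM across MSTN-KO replicates 1 to 3. It entered the comparison only through the WT libraries, so its place among the lower genes is partly fixed by the filter. The log2 fold change was -0.55 (SE of the log2 change 0.16, adjusted p from limma = 0.0315). The call was lost with any of the 6 libraries left out, after quantile normalization, with the replicate number as a block and once gene length and GC content were corrected for, and the adjusted p ranged from 0.00684 to 0.135 over the alternatives.

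The beta3 subunit, a further vitronectin receptor chain, gave no call. *Itgb3* had 18.7, 13.9 and 13 FPKM across WT replicates 1 to 3, against 12.4, 16.7 and 14.9 FPKM across MSTN-KO replicates 1 to 3. The groups overlapped, and the 95% interval of the log2 fold change ran from -0.40 to 0.31 (limma adjusted p = 0.883). *Itgb4*, *Itgb8* and *Itgb2* stayed under 1 FPKM in all 6 libraries. Of these, *Itgb4*, the hemidesmosome subunit that pairs with alpha6, had 0.778, 0.602 and 0.598 FPKM across WT and 0.401, 0.556 and 0.508 FPKM across MSTN-KO, without overlap.

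The summed FPKM of the 8 beta subunits was 265, 275 and 279 across the WT replicates, against 258, 269.9 and 232 across the MSTN-KO replicates, so the groups overlapped. The make-up of this sum differed. *Itgb1* held 66.5%, 72% and 76.2% of it across WT and 51.3%, 54% and 41.8% across the MSTN-KO replicates. *Itgb5* held 22.7%, 19.4% and 15.9% in WT and 37.6%, 34.7% and 45% in MSTN-KO. Neither share overlapped between the groups (p = 0.1 for each by a two-sided exact permutation test, the lowest value possible with 3 libraries in each group, and 0.167 adjusted over 15 shares). A share within a library does not depend on how the library was scaled, but a rise in the share of 1 subunit lowers those of the others.

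Among the alpha subunits, *Itga7* was the most abundant. It encodes alpha7, the laminin receptor subunit of muscle. It had 367, 285 and 236 FPKM across WT replicates 1 to 3, against 164, 227 and 214 FPKM across MSTN-KO replicates 1 to 3. WT replicate 3 was the lowest WT library and lay close to MSTN-KO replicate 2. The mean fell from 296 ± 66.1 to 201 ± 33.1 FPKM (SD, n = 3), on the log2 scale a change of -0.54 (SE of the log2 change 0.17, adjusted p from limma = 0.044). The call was lost without the filter on low values (adjusted p = 0.11), without the trend (0.0659) and without WT replicate 1, WT replicate 2, MSTN-KO replicate 1 or MSTN-KO replicate 3 (adjusted p of 0.158, 0.0991, 0.178 and 0.0854), and the adjusted p ranged from 0.00935 to 0.178 over all alternatives. WT replicate 3 was also the WT library with the lowest muscle differentiation markers, and without it the log2 fold change of *Itga7* was -0.69. Without WT replicate 1 the change was -0.38, and without MSTN-KO replicate 1 it was -0.40. The part of muscle differentiation in the lower *Itga7* was not tested.

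The other laminin-binding alpha subunits are alpha3 and alpha6. *Itga3* had 62.3, 42.9 and 47 FPKM across WT replicates 1 to 3, against 39.5, 39.4 and 40.8 FPKM across MSTN-KO replicates 1 to 3. The MSTN-KO libraries were nearly equal and just under the lowest WT library, with a log2 fold change of -0.32 (95% interval -0.63 to -0.01, adjusted p from limma = 0.143). It passed the threshold once gene length and GC content were corrected for (-0.37, adjusted p = 0.0286) and after scaling to a sum of 1000000 (-0.60, adjusted p = 0.0132), and the adjusted p ranged from 0.0132 to 0.355 over the alternatives. Without WT replicate 1 the log2 fold change of *Itga3* was -0.17 (adjusted p = 0.355). *Itga6* was at 11.3 to 12.9 FPKM in WT and at 8.35 to 11.5 FPKM in MSTN-KO, which overlapped (log2 fold change -0.24, 95% interval -0.56 to 0.09, adjusted p from limma = 0.29), and without MSTN-KO replicate 3 the log2 fold change was -0.12. The summed FPKM of the alpha3, alpha6 and alpha7 genes was 442, 339.5 and 295 across the WT replicates, against 214, 277 and 263 across the MSTN-KO replicates, without overlap (two-sided exact permutation test, p = 0.1, adjusted p = 0.267 over 8 sums).

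The tested alpha subunits that bind the RGD motif of fibronectin and vitronectin, *Itga5* and *Itgav*, gave no call. *Itga8* and *Itga2b* of the same class were under the filter and not tested. *Itga5*, the partner of beta1 in the fibronectin receptor, had 78, 57 and 56.8 FPKM across WT replicates 1 to 3, against 70.6, 66 and 71 FPKM across MSTN-KO replicates 1 to 3. WT replicate 1 was the highest library and the other WT libraries the lowest, so the groups overlapped (log2 fold change 0.13, 95% interval -0.18 to 0.43, adjusted p from limma = 0.563). *Itgav*, the partner of beta3, beta5 and beta6, was at 13.2 to 22.6 FPKM in WT and at 12.6 to 22.8 FPKM in MSTN-KO. Both groups spanned the same range, and the 95% interval of its log2 fold change was the widest of the 19 genes, from -0.43 to 0.50 (limma adjusted p = 0.917).

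*Itga7* held 67.4%, 69.4% and 64.2% of the summed alpha subunit FPKM across WT and 54%, 61.6% and 61.5% across the MSTN-KO replicates. *Itga5* held 14.3%, 13.9% and 15.4% in WT and 23.2%, 18% and 20.4% in MSTN-KO. Neither share overlapped between the groups (exact permutation p = 0.1 for each, two-sided, and 0.167 adjusted over 15 shares), whereas the share of *Itga3*, at 10.4% to 12.8% in WT and 10.7% to 13% in MSTN-KO, did. The ratio of summed alpha to summed beta FPKM was 1.32 to 2.05 in WT and 1.18 to 1.5 in MSTN-KO, with overlap (exact permutation test, p = 0.5).

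The 3 collagen-binding alpha subunits analysed here stayed under 1 FPKM in all libraries. *Itga1* was at most 0.0227 FPKM, *Itga11* at most 0.199 FPKM and *Itga10* at most 0.721 FPKM. *Itga11* was at 0.00823 to 0.0438 FPKM in WT and at 0.113 to 0.199 FPKM in MSTN-KO, without overlap and under the filter. In the fit without a filter, which took in all 14548 genes, it was called higher (log2 fold change 0.16, limma adjusted p = 0.0485), the 1 call among the 16 genes under the filter, beside 4.95% of all genes called higher and 6.23% called lower in that fit. *Itga8* and *Itga9* were listed at 0 in 5 of 6 libraries each. *Itga2b*, the platelet subunit, was at 0.179 to 0.801 FPKM.

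**Figure D2:**
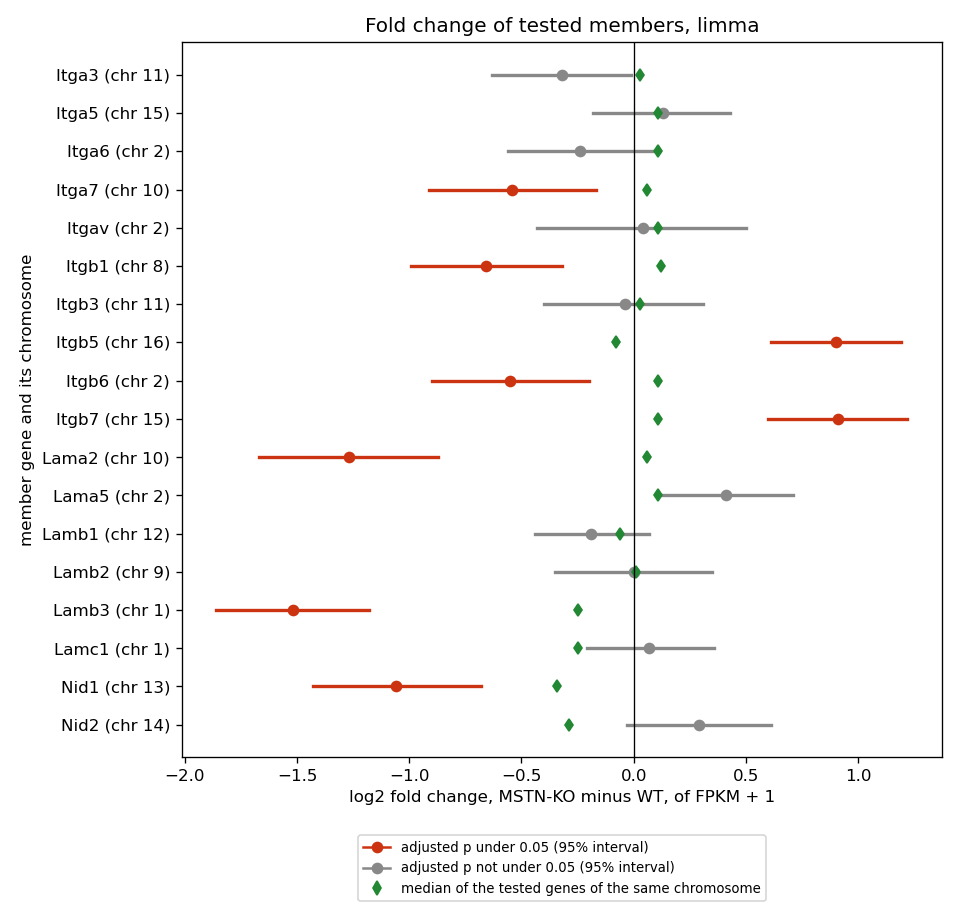
Log2 fold change of FPKM + 1, MSTN-KO minus WT, for 18 of the 19 tested genes with the 95% interval from limma, red where the adjusted p was under 0.05, and a green diamond at the median of all tested genes of the same chromosome. *Lamb3* at -1.52 and *Lama2* at -1.27 lie farthest to the left, and *Itgb7* at 0.91 and *Itgb5* at 0.90 farthest to the right.

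Among the laminin alpha chains, alpha2 is the chain of the muscle fibre basement membrane and alpha5 a widely expressed chain. *Lama2* had 6.43, 5.22 and 4.19 FPKM across WT replicates 1 to 3, against 1.79, 1.88 and 1.14 FPKM across MSTN-KO replicates 1 to 3. Every MSTN-KO library was under 2 FPKM and every WT library above 4 FPKM. The mean fell from 5.28 ± 1.12 to 1.6 ± 0.402 FPKM (SD, n = 3), 3.29-fold, with a log2 fold change of -1.27 (SE of the log2 change 0.18, adjusted p from limma = 5.32e-04). WT replicate 3 was again the lowest WT library, and without it the log2 fold change was -1.40. Without WT replicate 1 the change was -1.14, and without MSTN-KO replicate 3 it was -1.13. The part of muscle differentiation in the lower *Lama2* was not tested.

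*Lama5* was by far the most abundant alpha chain, at 41.6, 35.1 and 29.5 FPKM across the WT replicates, against 43.8, 48.5 and 48.5 FPKM across the MSTN-KO replicates. The MSTN-KO libraries were above all WT libraries, but WT replicate 1 came close to them. The log2 fold change of 0.41 (95% interval 0.10 to 0.71) missed the threshold with a limma adjusted p of 0.0629. It passed once gene length and GC content were corrected for (0.38, adjusted p = 0.0188) and without WT replicate 1 (0.53, adjusted p = 0.0292), and the adjusted p ranged from 0.0188 to 0.496 over the alternatives. *Lama1*, *Lama3* and *Lama4* were at most 0.156 FPKM in any library. *Lama4*, a chain of vessels and nerve sheaths, was at 0.0379 to 0.156 FPKM in WT and at 0.00696 to 0.0169 FPKM in MSTN-KO, without overlap.

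*Lama2* held 13.3%, 12.9% and 12.4% of the summed laminin alpha FPKM across WT and 3.92%, 3.73% and 2.3% across the MSTN-KO replicates. The share was nearly constant within WT, WT replicate 3 included, and nearly all the rest was *Lama5*, which held 86.2% to 87.4% in WT and 96% to 97.6% in MSTN-KO. The groups did not overlap for either chain (exact permutation p = 0.1 for each, two-sided, and 0.167 adjusted over 15 shares).

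Of the laminin beta chains, beta3 is known from epithelia, where it is found in a trimer with alpha3, while beta1 and beta2 are widespread. *Lamb3* had 9.79, 8.73 and 7.2 FPKM across WT replicates 1 to 3, against 2.4, 2.44 and 2.13 FPKM across MSTN-KO replicates 1 to 3. The lowest WT library was far above the highest MSTN-KO library. The mean fell from 8.57 ± 1.3 to 2.33 ± 0.171 FPKM (SD, n = 3), 3.69-fold, on the log2 scale a change of -1.52 (SE of the log2 change 0.16, adjusted p from limma = 2.93e-05), the largest in size among the 19 genes in this fit. It held 8.84% to 9.55% of the summed beta chain FPKM in WT and 2.69% to 3.17% in MSTN-KO.

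*Lamb1* had 50.8, 51.9 and 45.7 FPKM across WT replicates 1 to 3, against 43.2, 44 and 42.7 FPKM across MSTN-KO replicates 1 to 3, just below WT in each library (log2 fold change -0.19, 95% interval -0.44 to 0.07, adjusted p from limma = 0.296). After scaling to a sum of 1000000 it was called lower (-0.47, adjusted p = 0.0179), and the adjusted p ranged from 0.0179 to 0.602 over the alternatives. *Lamb2* was at 28.6 to 44.4 FPKM in WT and at 30.6 to 37.1 FPKM in MSTN-KO, with a 95% interval of its log2 fold change from -0.35 to 0.35 (limma adjusted p = 0.998).

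Of the laminin gamma chains, gamma1 is part of most laminins. *Lamc1* had 31.9, 40.2 and 34.6 FPKM across WT replicates 1 to 3, against 39.3, 33.8 and 39.2 FPKM across MSTN-KO replicates 1 to 3. The groups overlapped, with a log2 fold change of 0.07 (95% interval -0.21 to 0.36, adjusted p from limma = 0.735). *Lama3*, the gene of the alpha3 chain that joins beta3 in epithelia, was at 0 to 0.0541 FPKM. *Lamc3* was at most 0.0677 FPKM.

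**Figure D3:**
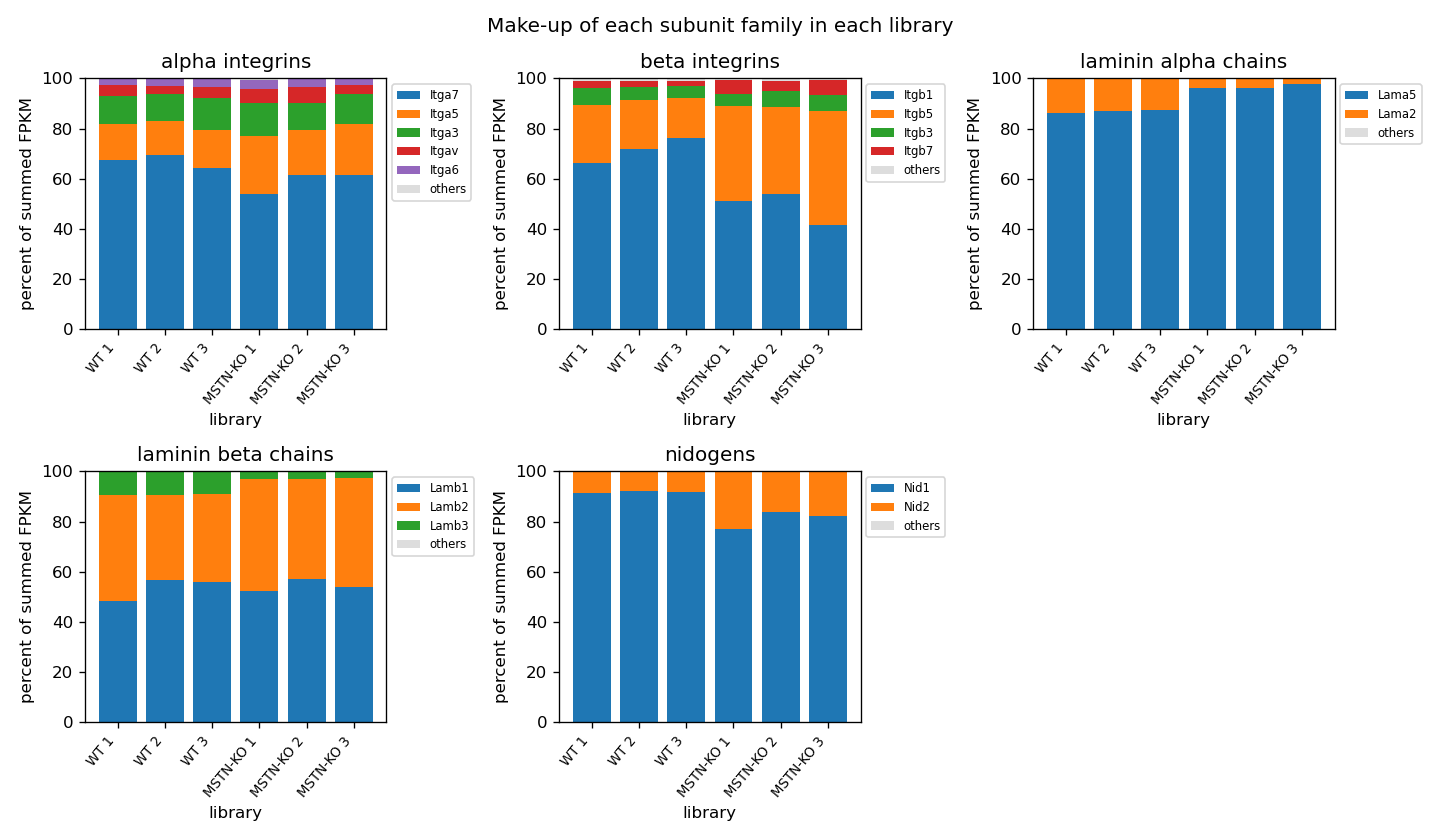
Percent of the summed FPKM held by each gene for the integrin subunits, the laminin alpha and beta chains and the nidogens, with 1 bar per library and genes under a mean of 1% joined as others. *Itgb5* takes a larger part of the beta integrins in MSTN-KO (34.7% to 45%) than in WT (15.9% to 22.7%), and *Lama2* and *Lamb3* take smaller parts of their families.

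Of the nidogens, *Nid1* was downregulated and *Nid2* gave no call. *Nid1* had 149, 121 and 119 FPKM across WT replicates 1 to 3, against 47, 79.8 and 61.7 FPKM across MSTN-KO replicates 1 to 3. No MSTN-KO library reached the lowest WT library, and MSTN-KO replicate 1 was the lowest. The mean fell from 129.5 ± 16.6 to 62.8 ± 16.4 FPKM (SD, n = 3), 2.06-fold, on the log2 scale a change of -1.06 (SE of the log2 change 0.17, adjusted p from limma = 0.00133). It was -0.87 without MSTN-KO replicate 1 and -0.96 without WT replicate 1, under both of which the DEG criterion on size was missed.

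*Nid2* had 13.8, 10.4 and 10.7 FPKM across WT replicates 1 to 3, against 14.1, 15.6 and 13.3 FPKM across MSTN-KO replicates 1 to 3, overlapping through WT replicate 1 (log2 fold change 0.29, 95% interval -0.03 to 0.61, adjusted p from limma = 0.193). Its exons overlap those of *Rtraf* on the opposite strand by up to 437 bases, and no source used here says whether fragments were counted by strand. The same limit holds for *Lama2* (up to 538 bases with *Gm48084*), *Nid1* (143 with *Gm48682*), *Itga7* (9 with *Mettl7b*) and *Itgav* (634 with *Gm13684*). *Nid2* held 7.92% to 8.49% of the summed nidogen FPKM in WT and 16.4% to 23.1% in MSTN-KO, without overlap (two-sided exact permutation test, p = 0.1, adjusted p = 0.167 over 15 shares). The summed nidogen FPKM was 129 to 162 in WT and 61.1 to 95.4 in MSTN-KO.

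Several of these genes lie on chromosomes on which the tested genes had a median well below 0 in MSTN-KO, namely chromosome 13 with a median log2 fold change of -0.34, chromosome 14 with -0.29 and chromosome 1 with -0.25. *Nid1* (chromosome 13, 13437551 to 13512269 of GRCm38) was lower than the median of its chromosome by a further -0.71. *Lamb3* (chromosome 1, 193207699 to 193343878) was lower than its chromosome by -1.26. *Lamc1* on the same chromosome lay above its median by 0.33, and *Nid2* on chromosome 14 by 0.57. The remaining called genes lie on chromosomes with medians between -0.08 and 0.12: *Lama2* (26980036 to 27619758) and *Itga7* (128933818 to 128958282) on chromosome 10, *Itgb1* on 8 (128685654 to 128733200), *Itgb5* on 16 (33829665 to 33949338), *Itgb6* on 2 (60598292 to 60722643) and *Itgb7* on 15 (102215995 to 102231944). The part of the chromosome-wide shift in the values of *Nid1* and *Lamb3* was not tested.

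The sequences before the transcription start are shown for 5 called genes, as the regions where a reader may look for shared elements. Between means, *Itgb6* (2.27-fold lower, region not shown) changed more than some of these. The 5 genes, *Lamb3*, *Lama2*, *Nid1*, *Itgb7* and *Itgb5*, had the largest changes in size on the scale of log2(FPKM + 1). Each run is the 250 bases upstream of the start in the table (the outermost where there were several), 5′ to 3′ on the strand of the gene, from RefSeq on GRCm38.p6, with E-boxes (CANNTG, the motif bound by MyoD and myogenin) and AP-1 sites (TGANTCA, the motif bound by Fos and Jun) in capitals. The RefSeq starts of *Lamb3*, *Lama2*, *Nid1* and *Itgb7* lie inside the GENCODE spans of these genes, and that of *Itgb5* is at the edge of its span. The first 3 genes fell and the last 2 rose.
Lamb3 promoter, chr1:193301744-193301993, plus strand: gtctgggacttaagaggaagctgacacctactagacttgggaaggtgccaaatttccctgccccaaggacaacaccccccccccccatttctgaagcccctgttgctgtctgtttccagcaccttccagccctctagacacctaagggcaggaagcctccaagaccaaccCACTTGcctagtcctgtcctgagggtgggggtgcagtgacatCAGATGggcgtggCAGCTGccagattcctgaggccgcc
Lama2 promoter, chr10:27616943-27617192, minus strand: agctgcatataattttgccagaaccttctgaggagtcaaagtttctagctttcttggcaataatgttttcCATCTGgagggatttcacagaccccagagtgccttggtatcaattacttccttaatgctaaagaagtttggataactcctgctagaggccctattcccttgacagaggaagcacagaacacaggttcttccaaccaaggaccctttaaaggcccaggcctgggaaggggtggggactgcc
Nid1 promoter, chr13:13437352-13437601, plus strand: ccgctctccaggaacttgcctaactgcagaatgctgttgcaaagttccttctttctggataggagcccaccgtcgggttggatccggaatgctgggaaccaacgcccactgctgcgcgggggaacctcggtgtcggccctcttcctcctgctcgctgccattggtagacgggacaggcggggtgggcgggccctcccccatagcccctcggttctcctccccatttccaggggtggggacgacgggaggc
Itgb7 promoter, chr15:102231936-102232185, minus strand: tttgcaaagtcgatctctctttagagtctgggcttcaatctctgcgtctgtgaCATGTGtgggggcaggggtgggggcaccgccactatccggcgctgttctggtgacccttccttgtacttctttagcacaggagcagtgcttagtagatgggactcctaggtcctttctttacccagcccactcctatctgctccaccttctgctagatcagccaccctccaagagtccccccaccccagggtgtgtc
Itgb5 promoter, chr16:33829415-33829664, plus strand: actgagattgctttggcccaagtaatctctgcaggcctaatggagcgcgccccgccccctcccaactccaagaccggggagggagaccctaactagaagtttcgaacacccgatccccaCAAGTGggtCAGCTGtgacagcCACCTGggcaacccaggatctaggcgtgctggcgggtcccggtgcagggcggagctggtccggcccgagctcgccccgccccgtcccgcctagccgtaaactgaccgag

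E-boxes were in 4 of these 5 regions and in 66.2% of 32817 RefSeq promoter regions of the same length, and the region of *Nid1* had 0. AP-1 sites were in 0 of the 5 and in 6.8% of all regions. Both motifs read the same on both strands, and with 0 AP-1 sites the motifs did not overlap. Of 13 tested genes of these families in the promoter table, 10 had an E-box and 7 a GC box (GGGCGG on either strand, in 32.7% of all regions). The GC content of the 5 regions was 47.2% for *Lama2*, 56% for *Itgb7*, 58.8% for *Lamb3*, 64.4% for *Nid1* and 65.2% for *Itgb5*, with a median of 52.4% over all regions. These matches are descriptions of letters, and binding was not measured here.

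The proteins around the integrins and in the basement membrane were described from 5 lists with 79 tested genes. Of these, 7 rose and 16 fell, beside 8.78% and 8.96% of all tested genes, and the median log2 fold change was 0.00. Among the 16, *Itgb1bp2*, *Sgcd* and *Edil3* reached 1 FPKM in WT libraries only, so their place among the lower genes is partly fixed by the filter. The adaptors that tie integrins to actin had 26 tested genes, of which 5 fell and 0 rose, beside the 8.96% and 8.78% over all tested genes. The 5 were *Itgb1bp2* (melusin, a muscle protein that binds beta1, -1.59), *Vcl* (vinculin, -0.80), *Ptk2b* (a focal adhesion kinase, -0.77), *Fermt2* (kindlin-2, which activates integrins, -0.60) and *Parvb* (beta-parvin, -0.47). *Vcl*, *Ptk2b* and *Fermt2* lie on chromosome 14. The other 21 adaptors gave no call. Among these, *Tln1* (talin) was at 85.7 ± 17.2 FPKM in WT and 92.5 ± 3.29 FPKM in MSTN-KO. *Ilk* was at 163 ± 24.6 and 184 ± 8.63 FPKM, and *Ptk2* at 19.3 ± 1.42 and 18.7 ± 2.25 FPKM (SD, n = 3).

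Receptors for laminin outside the integrins had 12 tested genes, of which 3 fell and 0 rose, beside 8.96% and 8.78% of all tested genes, with a median of -0.17. *Bcam*, a receptor for the laminin alpha5 chain, had 13.3, 13.2 and 9.81 FPKM across WT replicates 1 to 3, against 1.37, 1.97 and 1.71 FPKM across MSTN-KO replicates 1 to 3. All MSTN-KO libraries were far below WT, with a log2 fold change of -2.28 (SE of the log2 change 0.17, adjusted p from limma = 1.15e-06), larger in size than that of any of the 19 genes. The sarcoglycan genes *Sgcd* and *Sgcb* fell by 1.55 and 0.54 on the log2 scale, and *Sgcd* was listed at 0 in MSTN-KO replicates 2 and 3. *Dag1*, the dystroglycan gene, gave no call at 44.2 ± 11.5 and 35.6 ± 3.07 FPKM (SD, n = 3).

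Integrin ligands outside the laminins had 17 tested genes, of which 4 rose and 4 fell, beside 8.78% and 8.96% of all tested genes. *Npnt* (nephronectin, a ligand of alpha8 with beta1) fell from 94.8 ± 6.79 to 38.7 ± 3.98 FPKM (SD, n = 3; log2 fold change -1.27), with *Itga8* itself listed at 0 in 5 libraries. *Thbs2* (0.92), *Ccn1* (0.91) and *Fbn1* (0.71) rose, as did *Thbs1* (0.62), while *Postn* (-0.82), *Edil3* (-0.70) and *Tnc* (-0.42) fell. *Fn1*, the fibronectin gene, was at 646 ± 175 FPKM in WT and 477 ± 62.6 FPKM in MSTN-KO and gave no call (log2 fold change -0.41, adjusted p from limma = 0.125).

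The other basement membrane genes had 13 tested members, of which 2 rose and 2 fell, again beside 8.78% and 8.96%. *Smoc2*, a calcium-binding matrix protein, rose from 2.01 ± 0.851 to 12.8 ± 4.88 FPKM (SD, n = 3; log2 fold change 2.17), and *Fbln1* (fibulin-1) rose by 0.41. *Col18a1* fell from 86.5 ± 11.8 to 37.4 ± 4.13 FPKM (log2 fold change -1.18) and *Tinagl1* from 4 ± 0.793 to 0.975 ± 0.394 FPKM (-1.35). The main collagen IV chains and perlecan gave no call, with *Col4a1* at 89.9 ± 23.9 and 106 ± 4.45 FPKM, *Col4a2* at 71.3 ± 16.1 and 76.9 ± 3.49 FPKM and *Hspg2* at 64.2 ± 31.6 and 45.6 ± 6.74 FPKM. Among 11 membrane partners of integrins, *Cd47* rose (0.84) and *Cd44* (-0.92) and *Cd82* (-0.55) fell, beside 8.78% and 8.96% of all tested genes. The laminin receptor partner *Cd151* was at 256 ± 41.7 FPKM in WT and 263 ± 27.7 FPKM in MSTN-KO without a call.

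**Figure D4:**
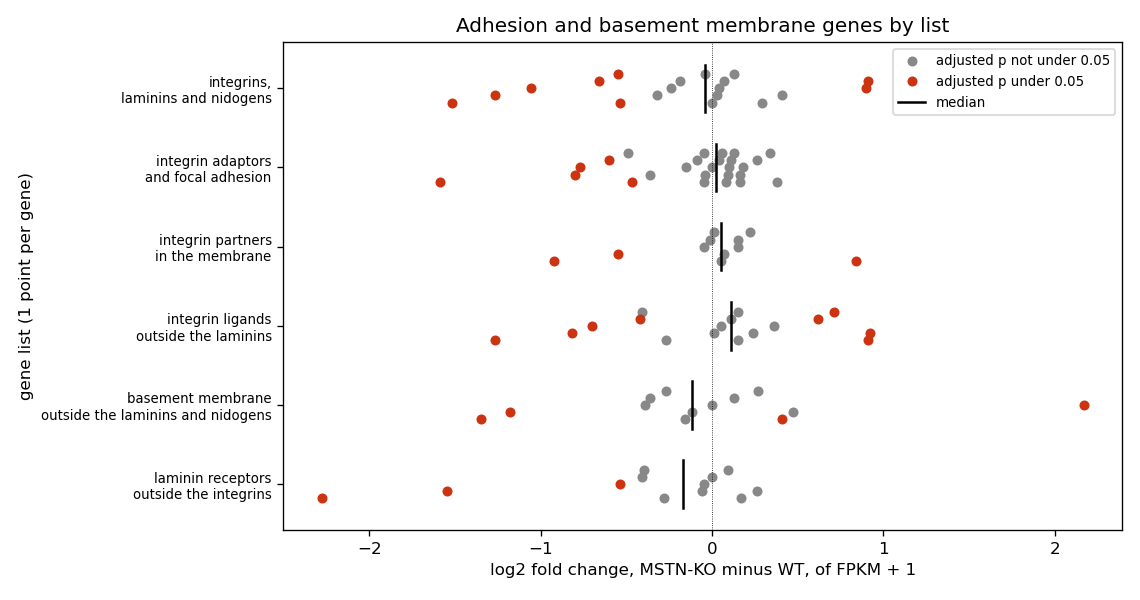
Log2 fold change of FPKM + 1, MSTN-KO minus WT, with 1 point per tested gene for the integrins, laminins and nidogens and for the 5 other lists, red where the limma adjusted p was under 0.05, and a black line at the median of each list. The medians lie between -0.17 and 0.11, and single genes such as *Smoc2* (2.17) and *Bcam* (-2.28) lie far from them.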

How the data were processed

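The data were RNA-seq libraries, 3 of WT and 3 of MSTN-KO, grouped by their labelled titles and genotypes. The authors deposited FPKM values per gene, one library per file; the submitters' processing notes name Bowtie 0.12.2 and the build mm8, and the quantifier and annotation are not given in the sources used here. FPKM depends on the other genes of a library, so a few abundant genes lower all others. Of 14548 Ensembl identifiers, 14454 had a symbol in GENCODE M21 (GRCm38, from which all gene coordinates come). The 10837 genes that reached 1 FPKM in any library entered as log2(FPKM + 1) into a limma 3.58.1 fit in R 4.3.3 (1 group coefficient, eBayes with a trend, Benjamini-Hochberg over all genes). Named in full were called members with a mean of at least 1 FPKM and the most abundant of each class, and up to 4 called genes of each other list with the lowest adjusted p; *Itgb6*, the remaining called and untested members and further list genes were named after their values were seen. The values of 1 tested member, which is in the counts, are not reported here. The members and lists were chosen with earlier results of these data known. Shares and sums were tested by exact permutation over the 6 libraries. Markers of epithelial cells (5 genes analysed) summed to 41.8 to 46.9 FPKM in WT and 24.8 to 52.2 FPKM in MSTN-KO, nearly all *Krt14*. The alternatives were another pseudocount (0.1), other filters, no trend, scaling to a sum of 1000000 or by the percentile 75, quantile normalization, correcting for GC content and gene length (mgcv 1.9.3), a block for the replicate number and leaving out each library. On simulated data of 10837 genes, the fit recovered 98% of changes of 2 on the log2 scale and 80% of changes of 1, and called 9 unchanged genes. The changed genes were drawn from those with a WT mean above 2 on the scale of log2(FPKM + 1). The recovery thus does not cover genes near the filter, such as *Itgb6*. Noise was drawn independently for each gene, without shifts shared across a library or a chromosome. The 9 calls among unchanged genes thus do not cover such shifts. Python 3.11.15 with scipy 1.17.1 was used for the other steps.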

Additional observations from a re-analysis of the deposited data

How the results depend on the processing

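Of the called genes, *Itgb1*, *Itgb5*, *Itgb7*, *Lama2*, *Lamb3* and *Nid1* kept direction and call under all alternatives that were run, while *Itga7* lost the call under 6 of 16 and *Itgb6* under 10 of 15. With each library left out, 2 to 3 of the 19 genes were called higher and 4 to 5 lower, and 0 to 1 and 2 to 3 met the DEG criteria. For the 5 other lists these ranges were 5 to 10 higher and 10 to 15 lower, with 4 higher after scaling to a sum of 1000000 and 11 once gene length and GC content were corrected for. The same-numbered libraries did not deviate together (r of -0.0153, -0.128 and -0.142), so the number was not taken as a pairing; with it as a replicate block, 2 genes were called higher and 5 lower, without *Itgb6* (adjusted p = 0.0601).

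Several values turned sign. Scaling to a sum of 1000000 gave log2 fold changes of -0.15 for *Itga5*, -0.23 for *Itgav*, -0.28 for *Lamb2* and -0.21 for *Lamc1*. With this scaling the difference of summed FPKM, MSTN-KO minus WT, turned from 7.76 to -1.28 for laminin alpha chains. For RGD-binding alpha subunits it turned from 5.92 to -12.6. Scaling by the percentile 75 gave -0.01 for *Itgav* and -0.05 for *Lamb2*; quantile normalization gave -0.04 for *Lamb2*, and the length and GC correction -0.05 without and with the replicate block. With each library left out, the log2 fold change ran from -0.16 to 0.25 for *Itgav*, -0.14 to 0.11 for *Itgb3* and -0.12 to 0.19 for *Lamb2*. The difference of shares in percentage points ran from -0.326 to 0.875 for *Itga3*, -0.252 to 0.936 for *Itgb3* and -2.04 to 2.16 for *Lamb1*. The cause was not tested. The filter on a mean of 1 FPKM gave no value for *Itgb6*. With 3 libraries a group, the exact tests of shares and sums cannot pass 0.05. Without the filter, 1 of the 16 genes under 1 FPKM was called (*Itga11*), with the depth behind such values unknown.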
